A study of Mus musculus with 3 samples.

Results

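Inflammatory monocytes of the inflamed sciatic nerve were taken as 189 of 13637 filtered CD45+ cells, that is immune cells, in 3 single-cell libraries. They were selected on measured UMIs (unique molecular identifiers, each counting 1 captured transcript): at least 5 of Lyz2 and at least 1 of Ly6c2 and Chil3 together, at most 1 of C1qa, C1qb and C1qc together, at most 1 of Siglech, and 0 of Cd3d, Cd3e, Cd3g, Cd79a, Fscn1, Cd209a, Xcr1 and Clec9a. Lyz2, Ly6c2 and Chil3 mark monocytes, and the limits remove C1q macrophages, T cells, B cells, plasmacytoid dendritic cells and the other dendritic cells. The values of these 15 genes therefore chose the cells and are given only as description. Cells with over 5000 genes or over 20% mitochondrial UMIs had been left out.

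Every library was made from the sciatic nerve of NOD.AireGW/+ mice that had become neuropathic. These mice have 1 mutated copy of Aire, which the thymus needs to make T cells tolerant of self, on the NOD strain, and their nerves become inflamed without induction. The nerves were taken after cardiac perfusion, digested with collagenase and sorted for CD45. Libraries 1 and 2 held the cells of 1 mouse apiece, and in library 3 the cells of 2 mice were pooled and cannot be told apart. The labels give 1 group and no ages, so cell classes were compared within libraries, and no effect of disease could be tested.

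Classical monocytes are made in the bone marrow, leave it through the chemokine receptor Ccr2, circulate in blood and enter inflamed tissue. There they release cytokines and chemokines, take up debris and can present antigen, and many turn into macrophages or antigen-presenting cells, losing Ly6c2 and gaining MHC class II (MHC-II) and macrophage genes on the way. Infiltrating monocytes and macrophages are a known feature of inflammatory neuropathies, in which they lie along damaged nerve fibers.

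The 36 monocytes of library 1 were 0.936% of its 3848 cells (exact binomial 95% interval 0.656 to 1.29). In library 2, 136 of 8256 cells met the rule, which was 1.65% (1.38 to 1.95). Library 3 gave 17 of 1533 cells, or 1.11% (0.647 to 1.77). The intervals of libraries 1 and 2 did not overlap, and that of library 3 overlapped both. With stricter limits, C1q at 0 and at least 10 Lyz2 UMIs, the shares were 0.806%, 1.15% and 0.718%. The monocytes held 268779, 666406 and 67496 UMIs, with medians of 8139.5, 4636 and 2873 UMIs per cell, so library 3 was the least precise. Intervals cover counting error only.

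**Figure D1:**
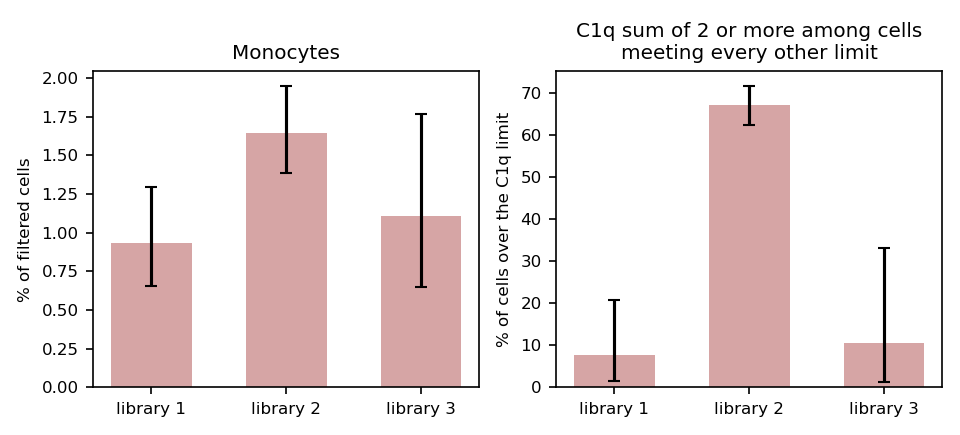
Left, the monocyte share of filtered cells in each library, as bars from 0 with exact binomial 95% intervals, at 0.936%, 1.65% and 1.11%. Right, among cells that met every other limit of the rule, the percentage with 2 or more C1q UMIs, which was 7.69%, 67.1% and 10.5%, with library 2 far above the other two.

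A few facts on the libraries touch these cells. Barcodes were shared between libraries 36 times for 1 and 2, 7 times for 1 and 3 and 14 times for 2 and 3, and no shared barcode was a monocyte in both. UMIs of Trac, Trbc1, Trbc2, Cd79b or Ms4a1 were found in 10, 6 and 0 of the monocytes, and no doublet caller was run. The deepest monocyte of library 3 held 18285 UMIs, 27.1% of that library's monocyte UMIs, and among them 55 of its 57 Prtn3 and all 18 of its Birc5 UMIs. For the genes named here that rest on this cell in library 3, the level without it is given too. Levels are CPM, the UMIs of a gene scaled to 1000000 UMIs of its class, listed in the order of libraries 1, 2 and 3.

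The markers of the label were present in all libraries. Of the genes in the rule, Lyz2 (chromosome 10, 117277331 to 117282321) was at 8263, 9268 and 6341 CPM, Ly6c2 at 1302, 602 and 978 CPM and Chil3 (chromosome 3, 106147554 to 106167564) at 815, 561 and 252 CPM. Just inside the Lyz2 limit, at 5 UMIs, lay 0, 6 and 2 monocytes, and just outside it, at 4, lay 0, 4 and 4 cells. Only 1 UMI of Ly6c2 and Chil3 together was held by 4, 24 and 9 of the 36, 136 and 17 monocytes. The markers that the rule did not use were Fn1, Tgfbi and Hp. Fn1, which encodes the matrix protein fibronectin (chromosome 1, 71585520 to 71653200), was at 1112, 801 and 978 CPM in monocytes. Tgfbi, an extracellular matrix protein of monocytes (chromosome 13, 56609523 to 56639562), was at 2288, 2096 and 1200.1 CPM. Hp, haptoglobin, which binds free hemoglobin (chromosome 8, 109575128 to 109579172), was at 606, 420.2 and 889 CPM. All positions are mm10. T cells of the same libraries, which should lack these genes, had Fn1 at 0.384, 1.82 and 0 CPM, Tgfbi at 6.3, 24.2 and 2.71 CPM and Hp at 0.23, 1.56 and 0.387 CPM, below the monocyte levels in every library.

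Cells differ in depth, so the share of monocytes with a UMI was also taken after thinning each cell to 1000 UMIs, which left out 0, 1 and 1 monocytes. A Fn1 UMI was then found in 50%, 50.4% and 62.5% of monocytes, against 91.7%, 78.7% and 70.6% without thinning, and in 0.0826%, 0.137% and 0% of thinned T cells. For Tgfbi the shares were 80.6%, 73.3% and 68.8%, and for Ccr2 63.9%, 25.2% and 25%. The Ccr2 share of library 1 (exact 95% interval 46.2 to 79.2) was above that of library 2 (18.1 to 33.4). Thinned to 500 UMIs, the Ccr2 shares were 30.6%, 19.1% and 17.6%, so the gap depended on the depth kept. T cells had a Ccr2 UMI in 23.8%, 12.9% and 11.3% of thinned cells, and since T cells can make Ccr2 themselves they give no background for it.

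To see how the monocytes differed from other cells of the same nerves, their summed UMIs were compared with those of T cells in 3 libraries and of Xcr1/Clec9a cells, the gate of type 1 dendritic cells, in libraries 1 and 2. The Xcr1/Clec9a cells numbered 17, 82 and 3, and the 3 were not used. Of 8469 genes tested, 862 (10.2%) were higher in monocytes than in Xcr1/Clec9a cells and 670 (7.91%) were lower. Against T cells, 1594 (18.8%) were higher and 1717 (20.3%) were lower, with a median log2 difference of -0.20 over all genes. Both comparisons use the same monocyte sums and come from 1 fit. Against Xcr1/Clec9a cells, 522 genes in all passed without library 1, 500 without library 2 and 1576 without library 3, against 1532 with all libraries, and against T cells 1628, 1629 and 3099 against 3311.

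The classical monocyte markers set the monocytes apart from both. Of 20, 19 were higher than in Xcr1/Clec9a cells, with a median log2 difference of 4.23 (4.17 with genes at 0 set to their bound) against -0.03 over all genes tested, and 18 were higher than in T cells, with a median of 7.17. Plac8 was at 4029, 1697 and 2445 CPM in monocytes and 1189 and 766 CPM in Xcr1/Clec9a cells, a log2 difference of 1.56 (SE 0.26, edgeR adjusted p 5.49e-06). T cells had Plac8 at 194, 179 and 91.7 CPM, and the groups did not overlap in any comparison. Ccr2 was at 871, 347 and 237 CPM in monocytes, 426 and 221 CPM in Xcr1/Clec9a cells and 289, 145 and 107 CPM in T cells. Monocytes were above T cells in every library, by 1.56 (SE 0.22, edgeR adjusted p 9.13e-08) on the log2 scale, while the difference from Xcr1/Clec9a cells was 0.77 (SE 0.25, edgeR adjusted p 0.0249) and lost the call without library 1 (adjusted p 0.828) or library 2 (0.274). Without library 1 the Plac8 call against Xcr1/Clec9a cells was lost too (edgeR adjusted p 0.199).

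Csf1r, the receptor for the growth factor that keeps monocytes and macrophages alive, was at 785, 525 and 163 CPM, against 8.88 and 8.73 CPM in Xcr1/Clec9a cells, a log2 difference of 6.35 (SE 0.46, edgeR adjusted p 2e-15). Cd14, the co-receptor for bacterial lipopolysaccharide, was at 2385, 1462 and 1304 CPM against 204 and 82.4 CPM, higher by 4.02 (SE 0.32, edgeR adjusted p 2.06e-14). T cells had 1.15, 4.3 and 0 CPM of Csf1r and 26, 20.1 and 3.87 CPM of Cd14. Fn1 and Hp had 0 UMIs in the Xcr1/Clec9a cells of both libraries, which with a floor of 3 UMIs over the class puts the monocytes of libraries 1 and 2 at least 400-fold and 215-fold higher. S100a4 and S100a6, calcium-binding proteins of motile cells, were higher than in Xcr1/Clec9a cells. Against T cells, where S100a6 was at 2284, 3265 and 2332 CPM and monocytes at 2556, 1442 and 3645 CPM, neither gene passed the test. F13a1, the clotting factor XIII A chain, was at 249, 128 and 519 CPM, and at 244 CPM in library 3 without its deepest cell.

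**Figure D2:**
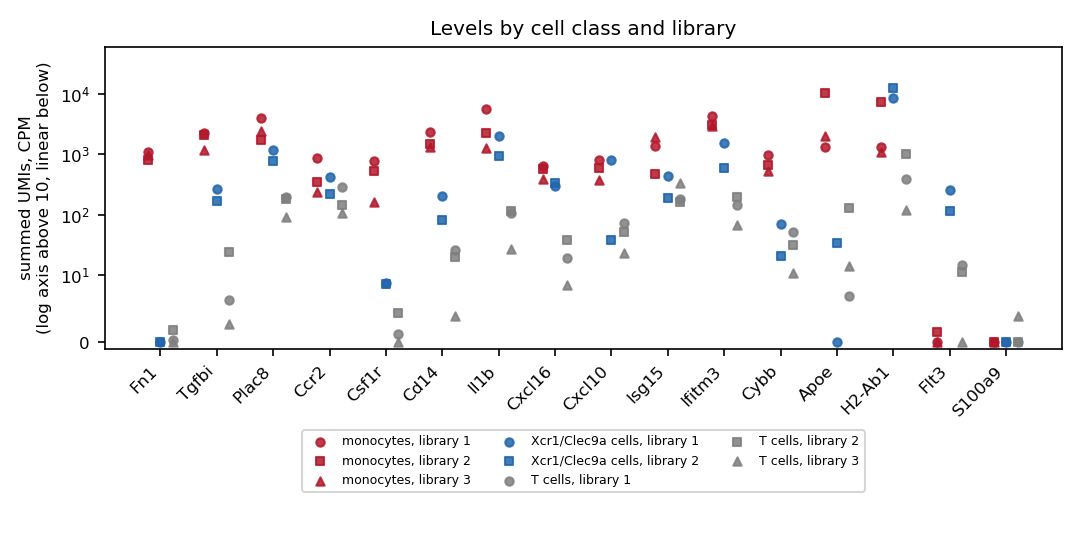
Levels in CPM (log axis above 10, linear below) for 16 genes in monocytes, Xcr1/Clec9a cells and T cells, with 1 point per library. Fn1, Tgfbi, Csf1r and Cd14 of monocytes lie above both other classes in every library, Flt3 lies below Xcr1/Clec9a cells, and S100a9 is at 0 in the monocytes of all 3 libraries.

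Other blood cells left little trace. Of 12 neutrophil markers, S100a9, Retnlg, Ly6g, Cxcr2, Mmp9, Camp, Ngp, Ltf and G0s2 had 0 UMIs in the monocytes of every library, while S100a8 was at 37.2, 30 and 119 CPM, and at 20.3 CPM in library 3 without its deepest cell, which held 7 of its 8 UMIs. Csf3r, the receptor for the neutrophil growth factor, was at 55.8, 54 and 14.8 CPM. Only these 2 neutrophil genes passed the filter on low counts, and both were called higher than in both other classes. Xcr1/Clec9a cells of libraries 1 and 2 had 0 UMIs of all 12 markers, which summed to 10.4, 3.84 and 15.1 CPM in T cells. The 2 genes thus passed the filter through the monocytes, and their calls are only a description. The nonclassical monocyte markers were mixed. Cx3cr1, the fractalkine receptor, was at 234, 221 and 29.6 CPM, higher than in Xcr1/Clec9a cells by 7.0 (SE 0.59, edgeR adjusted p 1.42e-13), but Ace was at 44.6, 7.5 and 0 CPM, Treml4 at 33.5, 10.5 and 29.6 CPM and Cd300e at 3.72, 1.5 and 0 CPM. Of the 8 nonclassical markers tested, 3 were higher and 2 lower than in Xcr1/Clec9a cells, and 3 were higher and 1 lower than in T cells.

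Of 11 dendritic cell markers tested, 9 were lower than in Xcr1/Clec9a cells and none was higher. Flt3, the receptor of the dendritic cell growth factor, was at 0, 1.5 and 0 CPM in monocytes and 253 and 116 CPM in Xcr1/Clec9a cells, lower by a log2 difference of -7.14 (SE 0.68, edgeR adjusted p 6.82e-12), a call that DESeq2 did not make (adjusted p 0.0784). Zbtb46, the transcription factor that defines conventional dendritic cells, had 0 UMIs in all monocytes, which makes it at least 18-fold lower. Cd24a, a surface marker of type 1 dendritic cells, was at 0, 0 and 14.8 CPM against 657 and 493 CPM. The T and NK cell markers were all lower than in T cells, 9 of 9. Nkg7 was at 63.2, 0 and 0 CPM and Trac at 7.44, 3 and 0 CPM, with T cells at 1884, 1604 and 1343 CPM and 287, 227 and 212 CPM. Of the 7 B and plasma cell markers, Ighm had the highest level in every library, at 115, 82.5 and 29.6 CPM, below the 140.2, 95.2 and 58 CPM of T cells. None of the tested T and NK cell, B cell or other markers differed from Xcr1/Clec9a cells past the threshold (0 of 9, 0 of 4 and 0 of 1), and 1 of the 4 B cell markers was lower than in T cells. Of 11 markers of Schwann cells, fibroblasts, red cells and mast cells, 8 had 0 UMIs in the monocytes of every library, and Mbp, at 40.9, 22.5 and 0 CPM, lay below the 60.4, 59.2 and 47.2 CPM of T cells.

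The cytokine genes of these monocytes were led by Il1b. Il1b, the main fever cytokine of the inflammasome, was at 5614, 2270.4 and 1289 CPM in monocytes, 2046 and 933 CPM in Xcr1/Clec9a cells and 106, 115 and 26.7 CPM in T cells. Monocytes were above T cells in every library, by 5.31 (SE 0.26, edgeR adjusted p 1.05e-22), and above Xcr1/Clec9a cells by 1.41 (SE 0.26, edgeR adjusted p 4.99e-05), a call lost without library 1 (edgeR adjusted p 0.157). In library 2, Il1b was at 3674 CPM (exact Poisson 95% interval 3262 to 4125) in Cd209a cells, described below, above the monocytes. C1q macrophages of library 2 had 863 CPM. After thinning, an Il1b UMI was found in 86.1%, 57.8% and 56.2% of monocytes against 1.16%, 1.84% and 0.402% of T cells. Its natural antagonist Il1rn was at 554, 389 and 385 CPM, above the 8.88 and 7.76 CPM of Xcr1/Clec9a cells by 5.92 (SE 0.43, edgeR adjusted p 2e-15). Osm, oncostatin M, a cytokine that acts on stromal cells, was at 201, 144 and 193 CPM against 0 and 1.94 CPM, higher by 6.77 (SE 0.61, edgeR adjusted p 9.88e-13).

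Of 18 inflammatory cytokine and effector genes, 13 were tested, 9 were higher than in Xcr1/Clec9a cells and 0 lower. Against T cells 10 were higher and 2, Il10 and Tnfsf10, were lower. Beside C1q macrophages in library 2, of 8 of these genes 1, Il1b, was 2-fold or more higher and 1, Saa3, lower. Of all 2195 genes compared there, 4.28% were higher and 3.01% lower. Tnf was at 290.2, 51 and 119 CPM. Il12b, Il23a and Nos2, which mark the classically activated state, had 0 UMIs in all monocytes, and Il6 was found in 1, 1 and 1 cells, in library 3 the deepest. Arg1, the arginine-degrading enzyme of repair-type macrophages, was at 67, 261 and 0 CPM, in 4, 38 and 0 cells. Saa3, an acute phase protein, was at 18.6, 696 and 59.3 CPM, in 2, 26 and 1 cells, so library 2 stood apart in both.

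Chemokine ligands were mostly higher in the monocytes than in Xcr1/Clec9a cells and T cells, but not than in C1q macrophages. In library 2, of 13 ligands set beside the macrophages, 3 were 2-fold or more higher and 4 lower, against 4.28% and 3.01% of all genes. The list summed to 9557 CPM in monocytes and 22382 CPM in macrophages. Of 17 in the list, 15 were tested and 14 were higher than in Xcr1/Clec9a cells, with a median log2 difference of 3.93 (3.46 with genes at 0 set to their bound). Ccl2, the ligand of Ccr2 that calls in more monocytes, was at 506, 725 and 800.0 CPM against 0 and 65.9 CPM, higher by 4.42 (SE 0.44, edgeR adjusted p 2.47e-11), and T cells had 0.768, 6.51 and 0 CPM. Cxcl2, which attracts neutrophils, was at 1496, 353 and 667 CPM. Cxcl9 and Cxcl10, interferon-induced ligands of Cxcr3 on T cells, were at 1042, 767 and 385 CPM and 799.9, 602 and 370.4 CPM. Both were higher than in T cells, Cxcl9 by 5.02 (SE 0.31, edgeR adjusted p 2.7e-19) and Cxcl10 by 3.82 (SE 0.37, edgeR adjusted p 2.83e-12). Against Xcr1/Clec9a cells, with Cxcl10 at 812 and 37.8 CPM, the levels of library 1 were close to each other, and the difference of 1.49 became -0.13 without library 2 (edgeR adjusted p 0.921) and lost the call without library 3 (0.0869). The Cxcl9 call against these cells was lost without library 1 or 2 (adjusted p 0.0620 and 0.226), and DESeq2 called neither gene (adjusted p 0.333 for Cxcl9 and 0.325 for Cxcl10).

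Cxcl16, the membrane-bound ligand of Cxcr6 on T cells, was at 644, 561 and 385 CPM in monocytes and 18.8, 38.5 and 8.51 CPM in T cells. The log2 difference was 4.84 (SE 0.26, edgeR adjusted p 3.07e-21), higher in 3 of 3 libraries. C1q macrophages of library 2 had 824 CPM. Xcr1/Clec9a cells had Cxcl16 at 302 and 332 CPM, below the monocytes by 1.01 (SE 0.27, edgeR adjusted p 0.00469), but not past the threshold without library 1 (0.447), without library 2 (0.160) or by DESeq2 (0.0690). After thinning, 47.2%, 34.8% and 31.2% of monocytes had a Cxcl16 UMI, against 0.413%, 1.48% and 0.201% of T cells. The shares were 25%, 20.6% and 23.5% at 500 UMIs and 83.3%, 70.6% and 52.9% without thinning. Of the other ligands, Ccl3, Ccl4 and Ccl5 were lower than in T cells. Ccl5 was at 1116, 4953 and 2622 CPM in monocytes and 8675, 11723 and 13626 CPM in T cells, a log2 difference of -1.96 (SE 0.28, edgeR adjusted p 1.06e-07), and at 62.1 and 23.3 CPM in Xcr1/Clec9a cells. The 9 T and NK cell markers summed to 130.2, 16.5 and 0 CPM in monocytes, with 7, 6 and 0 of them detected, against 5395, 4011 and 3753 CPM in T cells. The part of T cell RNA in the Ccl5 level was not tested.

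Among 20 chemokine and cytokine receptors, 13 were higher than in Xcr1/Clec9a cells and 1 lower, and 14 were higher than in T cells and 3 lower. Set beside C1q macrophages in library 2, 3 of 18 were 2-fold or more higher, Ccr1, Ccr2 and Csf2rb, and 0 lower. Over all genes these shares were 4.28% and 3.01%. Monocytes and macrophages there had Il21r at 114 and 88 CPM, Ifngr2 at 156 and 134 CPM and Il10ra at 212 and 154 CPM. Il21r, the receptor of the T cell cytokine IL-21, was at 156, 114 and 133 CPM in monocytes, 48.8 and 20.4 CPM in Xcr1/Clec9a cells and 322, 170.1 and 329 CPM in T cells. It was above Xcr1/Clec9a cells by 2.07 (SE 0.35, edgeR adjusted p 1.12e-05), which lost the call without library 2 (edgeR adjusted p 0.114). Against T cells the log2 difference was -0.68 (SE 0.24, edgeR adjusted p 0.0191), a call lost without library 1 (0.348) or 3 (0.0900) and by DESeq2 (0.0594). The interferon gamma receptor chains went opposite ways against T cells. Ifngr1 was at 298, 269 and 163 CPM in monocytes and 1159, 856 and 1246 CPM in T cells, a difference of -1.85 (SE 0.24, edgeR adjusted p 9.81e-09), and Ifngr2 was at 193, 156 and 163 CPM against 19.7, 16.8 and 10.4 CPM, a difference of 3.59 (SE 0.25, edgeR adjusted p 5.56e-17). The Ifngr chains did not pass the test against Xcr1/Clec9a cells. Il10ra, a chain of the IL-10 receptor, was at 212, 212 and 119 CPM and above T cells by 1.82 (SE 0.24, edgeR adjusted p 1.27e-08).

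**Figure D3:**
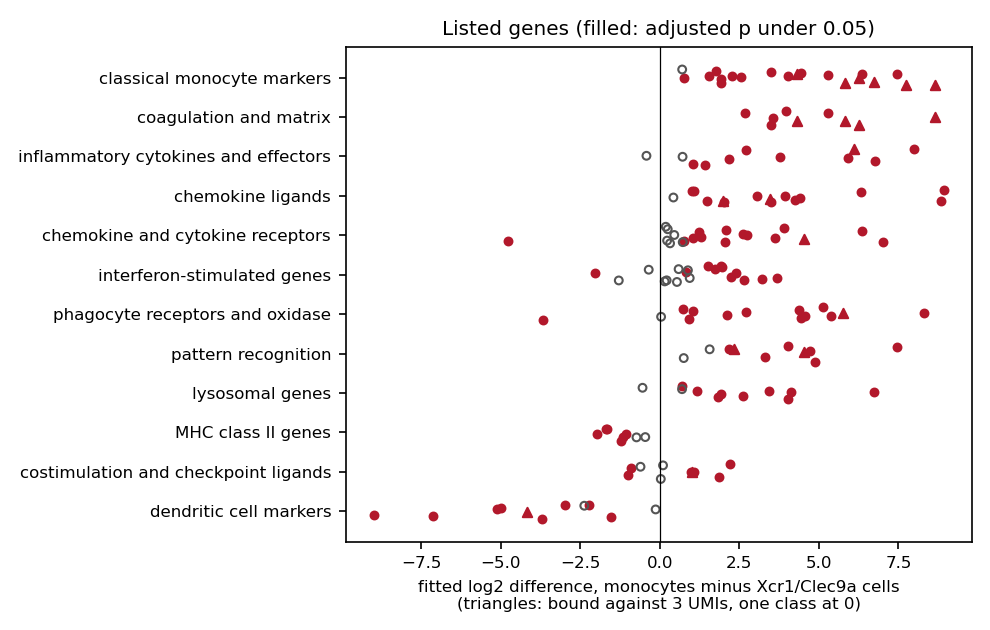
Fitted log2 difference between monocytes and Xcr1/Clec9a cells for the tested genes of 12 lists, 1 point per gene. Filled points passed an adjusted p of 0.05, open points did not, and triangles are bounds for genes with 0 UMIs in one class. Dendritic cell and MHC class II genes lie to the left, and monocyte markers, chemokine ligands, phagocyte and coagulation genes lie to the right.

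Interferon-stimulated genes were higher in part. These genes are switched on by type I and type II interferons, many through a sequence in their promoter, the interferon-stimulated response element. The letters GAAANNGAAA, a core form of this element, were searched on both strands in the 250 bases before the gene start in RefSeq promoters (GRCm38.p6, the build of mm10). They were found in 9 of the 16 listed genes with a promoter entry (56.3%) and in 936 of 27025 genes overall (3.46%). The match is a description of letters, not of binding. Shown are stretches of 3 genes whose levels are given next, in gene direction, with the match in capitals, which on the other strand reads TTTCNNTTTC.
Isg15: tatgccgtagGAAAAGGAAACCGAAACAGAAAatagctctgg
Ifit3: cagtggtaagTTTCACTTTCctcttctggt
Rsad2: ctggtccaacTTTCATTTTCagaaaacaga
The Isg15 stretch (chr4:156200865-156200906, minus strand) holds 3 overlapping matches starting 78 bases before the gene. The Ifit3 stretch (chr19:34583363-34583392, plus strand) starts its match 156 bases before the gene and Rsad2 (chr12:26456553-26456582, minus strand) 120 bases before.

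Isg15, a ubiquitin-like protein, was at 1388, 477 and 1941 CPM in monocytes, 444 and 187 CPM in Xcr1/Clec9a cells and 185, 159.8 and 338 CPM in T cells. It was higher than in T cells in every library, by 2.46 (SE 0.23, edgeR adjusted p 4.1e-13), and higher than in Xcr1/Clec9a cells by 1.51 (SE 0.27, edgeR adjusted p 2.29e-05), a call lost without library 1 (edgeR adjusted p 0.132). Ifit3, an RNA-binding antiviral protein, was at 130.2, 58.5 and 88.9 CPM and above T cells by 1.41 (SE 0.27, edgeR adjusted p 3.38e-05), a call also lost without library 1 (0.153). Rsad2, viperin, was at 160.0, 21 and 489 CPM, found in 13, 8 and 3 cells, and above T cells by 3.37 (SE 0.37, edgeR adjusted p 1.39e-10). Ifitm3, which blocks virus entry, was at 4289.8, 3046 and 2978 CPM and above T cells by 4.86 (SE 0.27, edgeR adjusted p 5.33e-21). Of 19 tested, 10 were higher and 1 lower than in Xcr1/Clec9a cells, with a median log2 difference of 0.94, and 15 were higher and 1 lower than in T cells, with a median of 2.03. Isg15, Rsad2 and Ifit3 were lowest in library 2. Ly6a went the other way, at 592, 1328 and 622 CPM against 4523 and 2969 CPM in Xcr1/Clec9a cells, where the call was lost without library 1 (0.192).

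Phagocyte, recognition and lysosomal genes were mostly higher in the monocytes than in Xcr1/Clec9a cells and T cells. Beside C1q macrophages in library 2, 0 of 13 phagocyte genes were past 2-fold, 2 of 6 pattern recognition genes were higher, and of 11 lysosomal genes 0 were higher and 3 lower (Ctsb, Ctsd and Grn), with lysosomal sums of 12632 CPM in monocytes and 23881 CPM in macrophages. Over all genes 4.28% were higher and 3.01% lower there, so 0 of 13 is near that share. Of 14 tested phagocyte receptor and oxidase genes, 12 were higher and 1, Cd36, lower than in Xcr1/Clec9a cells. Fcgr1, the high-affinity receptor for IgG, was at 1135, 905 and 356 CPM against 62.1 and 45.6 CPM, higher by 4.39 (SE 0.33, edgeR adjusted p 6.86e-15). Cybb, the core of the superoxide-making oxidase, was at 964, 656 and 533 CPM against 71 and 20.4 CPM, higher by 4.57 (SE 0.34, edgeR adjusted p 4.63e-15). Of 10 tested pattern recognition genes, 8 were higher than in Xcr1/Clec9a cells and 10 were higher than in T cells. Tlr2 was at 495, 180.1 and 104 CPM, higher than Xcr1/Clec9a cells by 4.87 (SE 0.41, edgeR adjusted p 1.79e-13), Nlrp3, the inflammasome sensor, at 394, 105 and 88.9 CPM, and Clec4e, a receptor for dead cells and mycobacteria, at 677, 167 and 800.0 CPM.

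Of 11 lysosomal genes, 9 were higher than in Xcr1/Clec9a cells and 10 were higher than in T cells. Lgmn, a lysosomal protease, was at 625, 854 and 504 CPM against 79.9 and 32 CPM, and Ctsd at 402, 584 and 415 CPM against 4.44 and 4.85 CPM, higher by 6.74 (SE 0.45, edgeR adjusted p 1.52e-16). Ctsd did not pass the test against T cells, which had 616, 505 and 378 CPM. Of 13 coagulation and matrix genes, 9 passed the filter on low counts. All 9 were higher than in Xcr1/Clec9a cells, and 8 were higher than in T cells. Among the 9, F10, Fn1, Thbs1 and Vcan had 0 UMIs in Xcr1/Clec9a cells, so they passed the filter through other classes. F10, F13a1, Fn1, Tgfbi, Thbs1 and Vcan were also counted above as classical monocyte markers, so the 2 lists are not separate results. Thbs1, thrombospondin, was at 160.0, 207 and 104 CPM and F10, clotting factor X, at 205, 63 and 88.9 CPM, both with 0 UMIs in Xcr1/Clec9a cells, so that they were at least 76-fold and 56-fold higher.

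Transcription factors split by lineage. Cebpb, a factor of inflammatory myeloid genes, was at 2608, 2413 and 3645 CPM against 102 and 89.2 CPM in Xcr1/Clec9a cells, higher by 4.64 (SE 0.30, edgeR adjusted p 5.28e-17). Zeb2 was at 428, 284 and 178 CPM against 4.44 and 4.85 CPM. Irf8, which type 1 dendritic cells need, was at 257, 314 and 133 CPM against 1025 and 1230.3 CPM, lower by a log2 difference of -1.98 (SE 0.26, edgeR adjusted p 4.62e-08). Of 15 factors, 8 were higher and 3 lower than in Xcr1/Clec9a cells, and 9 were higher and 2 lower than in T cells. Beside C1q macrophages in library 2, 0 of 14 factors were past 2-fold. This is near the share over all genes, of which 4.28% were higher and 3.01% lower there. Of 9 tested hypoxia and glycolysis genes, 7 were higher than in Xcr1/Clec9a cells and 6 higher than in T cells, with medians of 0.90 and 0.83. Vegfa, the vessel growth factor, was at 108, 180.1 and 267 CPM against 0 and 1.94 CPM, higher by 6.72 (SE 0.60, edgeR adjusted p 7.59e-13). Beside C1q macrophages in library 2, 0 of 7 hypoxia and glycolysis genes were past 2-fold, with Vegfa at 180.1 against 111 CPM. That count too is near the share over all genes.

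Cell cycle genes were low. Of 8, 4 were lower than in both other classes and 0 higher. Mcm5, a DNA replication helicase, had UMIs in 0, 0 and 1 monocytes, the deepest of library 3, and was lower than in Xcr1/Clec9a cells by a log2 difference of -5.28 (SE 0.91, edgeR adjusted p 1.26e-05). Library 3 held the exception, and it was 1 cell. Birc5 was at 0, 3 and 267 CPM, and at 0 in library 3 without its deepest cell. Prtn3, a granule protease of monocyte precursors, was at 11.2, 30 and 844 CPM, and at 40.6 CPM without that cell. The same cell held all 3 Mpo UMIs, all 5 Ctsg UMIs and 23 of 35 F13a1 UMIs of its library, and Mpo, the granule peroxidase of precursors, had 0 UMIs in the monocytes of libraries 1 and 2. Ear2 was at 205, 182 and 400.0 CPM, and at 102 CPM in library 3 without it.

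MHC-II genes lay between the levels of the other classes and differed between libraries. H2-Ab1, a chain of the MHC-II molecule, was at 1309.6, 7234 and 1096 CPM in monocytes, 8610.3 and 12751 CPM in Xcr1/Clec9a cells and 392, 998 and 121 CPM in T cells. Cd74, the invariant chain, was at 8654, 23124 and 5467 CPM. All 8 genes of the list were higher than in T cells, with a median log2 difference of 2.91, and 6 were lower than in Xcr1/Clec9a cells, with a median of -1.19. H2-Ab1 was lower than in Xcr1/Clec9a cells by a log2 difference of -1.66 (SE 0.28, edgeR adjusted p 1.03e-05). Without library 1 this was -0.83 (edgeR adjusted p 0.770), and H2-Aa and Cd74 lost their calls too (adjusted p 0.812 and 0.960). DESeq2 did not call Cd74 (adjusted p 0.0640). H2-Ab1 was highest in the monocytes of library 2, which was also the library with 1687 C1q macrophages against 6 and 4, and with the highest H2-Ab1 level in T cells. The part of free macrophage RNA in this was not tested.

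Of 10 costimulation and checkpoint ligands, 5 were higher and 2 lower than in Xcr1/Clec9a cells, and 8 were higher and 1 lower than in T cells. Cd274, the checkpoint ligand PD-L1, was at 96.7, 138 and 237 CPM against 13.3 and 31 CPM in Xcr1/Clec9a cells, higher by 2.21 (SE 0.36, edgeR adjusted p 5.81e-06). T cells had 64, 45.8 and 80.5 CPM, below monocytes by 1.43 (SE 0.26, edgeR adjusted p 7.68e-06), a call lost without library 2 (edgeR adjusted p 0.0557). Cd40, through which helper T cells activate antigen-presenting cells, was at 193, 188 and 267 CPM and above T cells by 4.54 (SE 0.29, edgeR adjusted p 1.36e-18). Beside C1q macrophages in library 2, 0 of 6 of these ligands were past 2-fold, near the share over all genes (4.28% higher and 3.01% lower). Cd274 was at 138 against 99 CPM there, and Cd40 at 188 against 139 CPM.

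The MHC-II share of single cells showed how far the monocytes varied among themselves. The percentage of a cell's UMIs from H2-Aa, H2-Ab1, H2-Eb1 and Cd74 had a median of 0.535% in library 1 (quartiles 0.0705% and 2.41%), 4.79% in library 2 (0.441% and 6.65%) and 0.692% in library 3 (0.0212% and 1.80%). It ran from 0 to 5.10%, 12.3% and 3.26%. The median over T cells was 0, 0.0367% and 0. Each library held monocytes at the T cell level and monocytes well above it.

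**Figure D4:**
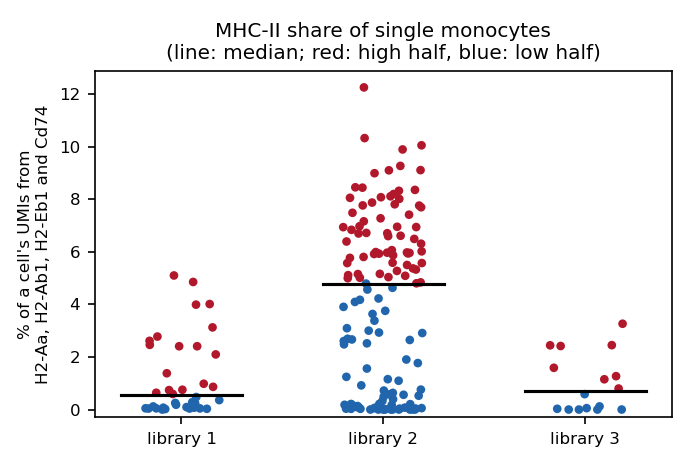
Percentage of each monocyte's UMIs from 4 MHC-II genes, by library, for cells with 1000 or more UMIs, with 1 point per cell, a line at the median, and the MHC-II-high and MHC-II-low cells in red and blue. All libraries have cells near 0, and library 2, with a median of 4.79%, reaches highest.

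To ask which other genes moved with MHC-II, the monocytes of each library were divided at its median into MHC-II-high and MHC-II-low cells, 18 and 18 in library 1 and 67 and 68 in library 2. Each is a range of the score and not a cell type, and 0 and 12 cells lay within 10% of the median. The MHC-II-high cells were the deeper, with medians of 8752 against 7343 UMIs in library 1 and 5692 against 3595 in library 2. Genes of the MHC-II list were not tested. Of 2784 genes, 31 (1.11%) were higher in MHC-II-high and 58 (2.08%) higher in MHC-II-low cells. These calls rest on libraries 1 and 2 and on the library as a block: 0 genes passed with DESeq2 (58 at an unadjusted p under 0.05) and 0 by edgeR without the block (110 at an unadjusted p under 0.05).

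MHC-II-low cells had more of several genes known from blood monocytes. Ifitm6 was at 84.1 against 236 CPM in library 1 and 2.46 against 282 CPM in library 2, high against low, a log2 difference of -3.27 (SE 0.40, edgeR adjusted p 2.14e-12). Ear2, a ribonuclease, was at 136 against 298 CPM in library 1 and 41.8 against 402 CPM in library 2. F13a1 was at 155 against 376 CPM in library 1 and 39.3 against 267 CPM in library 2, a difference of -2.0 (SE 0.34, edgeR adjusted p 2.71e-06). Of 18 classical monocyte markers tested, 6 were lower in MHC-II-high cells, among them F13a1, Fn1, Ifitm6, S100a4 and S100a6, and none was higher. Anxa1, an anti-inflammatory mediator, and Socs1, an inhibitor of interferon signalling, went the same way, by -2.02 and -2.25 on the log2 scale. Cxcl10 was at 641 against 1015 CPM in library 1 and 199 against 1238 CPM in library 2. With library 3 added, as 8 and 8 cells, Fn1 and S100a4 no longer passed (edgeR adjusted p 0.110 and 0.0994) while Ifitm6, Ear2 and F13a1 did. The deepest monocyte of library 3 lay among its MHC-II-low cells. It held 22 of 27 Ear2, 23 of 35 F13a1 and 4 of 8 Ifitm6 UMIs of that library's monocytes. The comparison with library 3 was not run without that cell.

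Genes higher in MHC-II-high cells belonged to no 1 list. Of 6 macrophage markers tested, 1 was higher, Ms4a7, and 1 lower, Spp1, and of 7 coagulation and matrix genes, 1 was higher, Mmp14, and 2 lower, F13a1 and Fn1. Pltp, a phospholipid transfer protein, was at 317 against 70 CPM in library 1 and 607 against 155 CPM in library 2, a difference of 2.03 (SE 0.35, edgeR adjusted p 2.71e-06). Mmp14, a membrane-bound matrix protease, was at 136 against 52.5 CPM in library 1 and 182 against 38.7 CPM in library 2, and Cd72 at 77.7 against 8.75 CPM in library 1 and 177 against 58 CPM in library 2. Ms4a7 was higher by 1.54 (edgeR adjusted p 0.0166), but DESeq2 gave -0.093. Spp1, osteopontin, was at 19.4 against 543 CPM in library 1 and 184 against 170.2 CPM in library 2, so the direction of its call came from library 1. Ccl5 and Cxcl16 were higher by 1.48 and 1.03. Neither passed without cells holding lymphocyte RNA (edgeR adjusted p 0.179 and 0.102) or with 2000 or more UMIs per cell (0.0780 and 0.221). Cd72 lost its call in the same settings (0.0612 and 0.179). Apoe, the lipid carrier, had a median per cell of 758 CPM in MHC-II-high and 0 in MHC-II-low cells of library 1, and of 13716 against 702 CPM in library 2. Its difference, 1.63 (SE 0.53, edgeR adjusted p 0.0573), missed the threshold, and passed it when library 3 was added (8.25e-09). Il1b, at -0.19 (adjusted p 0.969), did not pass and was 0.64 with library 3 added. The deepest cell of library 3, among its MHC-II-low cells, held 0 of 135 Apoe and 1 of 87 Il1b UMIs of that library's monocytes.

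Some macrophage genes were present in cells chosen for little or no C1q. Apoe was at 1321, 10330 and 2000.1 CPM in monocytes, 0 and 33.9 CPM in Xcr1/Clec9a cells and 6.84, 131 and 14.3 CPM in T cells. An Apoe UMI was found in 19, 116 and 6 of the monocytes, so library 3 rested on few cells. Trem2, a lipid receptor of macrophages, was at 164, 486 and 222 CPM, higher than in Xcr1/Clec9a cells by 8.43 (SE 0.66, edgeR adjusted p 1.97e-14). Of 8 macrophage markers tested, 7 were higher than in Xcr1/Clec9a cells and 1, Timd4, was lower. The 7 included Selenop, at 368, 642 and 252 CPM, and Adgre1, at 123, 93 and 14.8 CPM. Other listed macrophage markers were at or near 0. Lyve1 and Pf4 had 0 UMIs, Folr2 was at 0, 3 and 0 CPM, Cd163 at 0, 1.5 and 0 CPM and Mrc1 at 7.44, 10.5 and 0 CPM. These were low in C1q macrophages of library 2 too, with Lyve1 at 0.716, Cd163 at 0.796, Folr2 at 20.9, Pf4 at 21.4 and Mrc1 at 31.8 CPM.

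Monocytes and C1q macrophages could be set side by side in library 2 alone, because only there did both classes reach 10 cells, so no test was made. Of 2195 genes with a mean of at least 50 CPM, 94 (4.28%) were 2-fold or more higher in the monocytes and 66 (3.01%) 2-fold or more lower, on log2 of CPM plus 10. Plac8 was at 1697 CPM (exact Poisson 95% interval 1599.7 to 1799) in monocytes and 68.3 CPM (exact Poisson 95% interval 63.8 to 73.1) in the 1687 macrophages. Ccr2 was at 347 CPM (exact Poisson 95% interval 303 to 394) against 34.9 CPM (exact Poisson 95% interval 31.7 to 38.3), and Ifitm6 at 111 CPM against 1.83 CPM. In the other direction, Ccl8, a monocyte-attracting chemokine, was at 81 CPM (exact Poisson 95% interval 60.9 to 106) in monocytes and 13625 CPM (exact Poisson 95% interval 13561 to 13690) in macrophages. Cxcl13, which attracts B cells, was at 9 CPM against 4829.8 CPM, and Gpnmb, a lysosomal gene of lipid-laden macrophages, at 27 CPM against 513 CPM. Of 16 classical monocyte markers in this comparison, 12 were higher in the monocytes, and of 8 macrophage markers, 7 were lower. Of 8 MHC-II genes, 1, H2-Eb1, was past 2-fold.

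Where the rule draws its line on C1q mattered in library 2. Cells that met every other limit numbered 39, 413 and 19, and 3 (7.69%), 277 (67.1%, exact 95% interval 62.3 to 71.6) and 2 (10.5%) of them had more than 1 C1q UMI. Just inside the limit, at 1 UMI, were 5, 32 and 0 cells, and just outside, at 2 UMIs, 0, 7 and 1. T cells, which do not make C1q, were past the same limit in 0.257%, 4.15% and 0.258% of cells, at median depths of 3711, 2757 and 1793 UMIs. In library 2 these Ly6c2 or Chil3 cells were set in 4 ranges of the C1q sum, 0 to 1, 2 to 4, 5 to 19 and 20 or more, with 136, 16, 33 and 228 cells. Cells with more C1q were deeper, with medians of 4636, 4899, 5139 and 8176.5 UMIs.

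Across these ranges Plac8 was at 1697, 949, 647 and 242 CPM, from the fewest to the most C1q. Hp was at 420.2, 309, 248 and 110.0 CPM, S100a4 at 497, 463, 73.1 and 66.8 CPM and Il1b at 2270.4, 2112, 1839.5 and 1196 CPM. Ccr2 was at 347, 214, 287 and 86.3 CPM, so it was higher at 5 to 19 than at 2 to 4 C1q UMIs. Apoe was at 10330, 8935, 15515 and 28536 CPM, Gpnmb at 27, 59.3, 231 and 504 CPM, Cd63 at 197, 392, 636 and 1226 CPM and Trem2 at 486, 510.2, 714 and 1029 CPM. Between cells of 2 to 4 C1q UMIs and the monocytes, the exact Poisson 95% intervals overlapped for S100a4 (329 to 633 against 445 to 553 CPM) and Gpnmb (19.3 to 138 against 16 to 42.7 CPM). Those of Ccr2 and Hp overlapped too. Intervals did not overlap for Plac8 (753 to 1181 against 1599.7 to 1799 CPM), Cd63 (270 to 550 against 164 to 233 CPM) and Apoe (8308 to 9596 against 10087 to 10577 CPM). In the cells of 2 to 4 C1q UMIs, Plac8 and Apoe were lower and Cd63 was higher. These intervals cover counting error only. The ranges were cut by a gene of the rule, so they are a description.

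**Figure D5:**
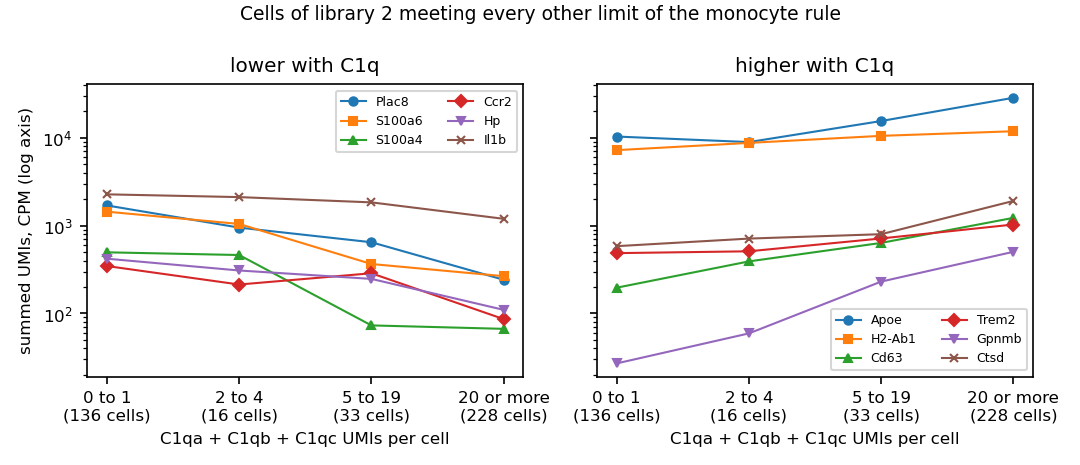
Levels in CPM (log axis) of 12 genes in cells of library 2 that met every other limit of the monocyte rule, in 4 ranges of C1q UMIs per cell with the number of cells in each. Plac8, Hp, Il1b and S100a4 fall with each range, Ccr2 falls from the first to the last but not at each step, and Gpnmb, Cd63, Ctsd, H2-Ab1 and Trem2 rise.

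Cd209a cells, the gate of monocyte-like type 2 dendritic cells, numbered 0, 13 and 0, so they too were set beside the monocytes in library 2 only and without a test. Of 2370 genes, 296 (12.5%) were 2-fold or more higher in the monocytes and 315 (13.3%) 2-fold or more lower. Apoe was at 10330 CPM (exact Poisson 95% interval 10087 to 10577) in monocytes and 141 CPM (exact Poisson 95% interval 70.3 to 252) in Cd209a cells, and Csf1r at 525 CPM (exact Poisson 95% interval 472 to 583) against 51.2 CPM (exact Poisson 95% interval 14 to 131). Fn1, Ccl2, Saa3, Trem2 and Hp had 0 UMIs in the Cd209a cells. Cd209a cells were higher in Flt3, at 128 CPM against 1.5 CPM, in Mgl2, at 576 CPM against 9 CPM, and in Tnfsf9, the ligand of 4-1BB, at 1191 CPM (exact Poisson 95% interval 961 to 1459) against 27 CPM (exact Poisson 95% interval 16 to 42.7). Of 18 classical monocyte markers in this comparison, 11 were 2-fold or more higher in the monocytes and 2, S100a4 and S100a6, lower. S100a4 was at 497 CPM in monocytes against 1344 CPM in Cd209a cells, and S100a6 at 1442 against 2932 CPM. Ccr2 was at 347 against 294 CPM. Of 8 MHC-II genes, none was past 2-fold in either direction.

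By size, the 10 largest differences above T cells with the same direction in every library were Apoc2, Thbs1, Ear2, F10, Fn1, F13a1, Prtn3, Apoc1, Msr1 and Hp. In library 3 the deepest cell held 55 of 57 Prtn3, 22 of 27 Ear2 and 23 of 35 F13a1 UMIs. Apoc2, a lipoprotein that activates lipase, was at 391, 679.8 and 726 CPM in monocytes and 0.0768, 0.651 and 0 CPM in T cells, higher by 10.86 (SE 0.36, edgeR adjusted p 4.68e-28). Against Xcr1/Clec9a cells the 10 largest included Mgst1, Arg1, Klra2, C3ar1, Sirpb1c and Acod1, each with 0 UMIs in the Xcr1/Clec9a cells, with bounds from at least 65-fold for C3ar1 to at least 107-fold for Acod1. Itgae and Btla had 0 UMIs in the monocytes and were at least 62-fold and 50-fold lower than in Xcr1/Clec9a cells. Genes that took the most UMIs of the monocytes, apart from mitochondrial and ribosomal protein genes, were Gm42418, a model that overlaps ribosomal RNA repeats, the ferritin chain Fth1, at 13100, 15007 and 15068 CPM, and the actin-binding Tmsb4x.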

How the data were processed

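The authors mapped the reads of 5′ libraries to mm10. Per the file headers, Cell Ranger 5.0.1 (library 1) or 6.1.2 (libraries 2 and 3) made the deposited raw UMI counts of filtered barcodes, with 32285 gene rows per library. Library 1 came with no gene list here and took the row order of the others: its row totals had a Spearman correlation of 0.950 with library 2 across genes, and 0.362 with the order shifted by 1 row. The deposited counts were summed per library and gate, leaving out sums under 10 cells. The other gates were T cells (2 or more Cd3 UMIs, at most 1 Lyz2), Xcr1/Clec9a cells (2 or more of these), C1q macrophages (C1q of 5 or more) and Cd209a cells (2 or more). Sums were tested with edgeR 4.0.16 (R 4.3.3): TMM, filterByExpr, the quasi-likelihood test with a term for library (the block), and p-values adjusted by Benjamini-Hochberg across every gene tested, with calls at an adjusted p under 0.05. Gate genes were not tested but stayed in the totals. The block holds because the classes of 1 library came from the same mice. Libraries are the replicates. With 1 to 2 mice each, p-values measure the spread between these libraries, which edgeR estimates partly by sharing it across genes. The fit of MHC-II-high and MHC-II-low cells had libraries 1 and 2 only, so its p-values lean on that shared spread. The code was tested on simulated counts.

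The planned tests against C1q macrophages and Cd209a cells had both classes in 1 library only and were replaced by 2-fold counts. The T cell and Xcr1/Clec9a comparisons were added after cell numbers were seen. Members, gene lists and tests were chosen with earlier results of these data known. Named genes come from the 21 lists, the 10 largest called differences each way with a mean of at least 50 CPM and the same direction in every library, and the 15 highest genes. Clec7a, Ero1a and Mx1 of the lists were not analysed here, and some items are not reported here. Alternatives were DESeq2 1.42.0, no block, other filters and gates, and each library left out. Promoters came from RefSeq (GRCm38.p6). The authors' clusters were not used here.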

Additional observations from a re-analysis of the deposited data

How the results depend on the processing

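Precision is limited by 17 monocytes in library 3, 17 Xcr1/Clec9a cells in library 1 and 13 Cd209a cells in all. Against Xcr1/Clec9a cells, 1532 genes passed. No replicate block gave 885, and leaving out 1 library gave between 500 and 1576, the lowest without library 2 and 522 without library 1. Against T cells, 3311 genes passed, and leaving out 1 library gave between 1628 and 3099, with 1629 without library 2. For the MHC-II-high and MHC-II-low cells, 89 genes passed. This became 30 with 2000 or more UMIs per cell, 57 (31 higher, 26 lower) with a minimum of 8 cells, which takes in library 3, 47 without cells holding lymphocyte RNA, 0 with DESeq2 and 0 with no replicate block. The library block pairs classes from the same mice. This comparison had no test without library 1 or 2, since no residual degrees of freedom were left. In library 2 alone, 160 genes were past 2-fold against C1q macrophages and 361 with no filter on low counts, and 611 and 2853 against Cd209a cells. The monocyte shares were 0.806%, 1.15% and 0.718% with C1q at 0 and Lyz2 at 10 or more. The mean share of monocytes with a UMI over libraries moved with thinning: at 500 UMIs to 33.6% for Fn1, 54.8% for Tgfbi and 23.0% for Cxcl16, and with none to 80.3%, 93.4% and 69.0%, and to 69.0% for Ccr2 and 62.8% for Isg15. Leaving out cells under 300 UMIs removed no cell, since the shallowest monocyte held 526 UMIs and the shallowest T cell 501. That setting could therefore change no count. With no test possible against C1q macrophages and Cd209a cells, DESeq2, no block and libraries left out were not run there.

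Of single genes, 3 changed sign. Cxcl10 against Xcr1/Clec9a cells ranged from -0.13 without library 2 to 4.02 without library 1, and between MHC-II-high and MHC-II-low cells Ms4a7 went to -0.093 with DESeq2 and Il1b to 0.64 with a minimum of 8 cells. Of the other values of named genes, 459 of those against Xcr1/Clec9a cells kept direction and call and 34 lost the call. Against T cells 406 kept both and 11 lost the call. Between MHC-II-high and MHC-II-low cells 104 kept both, 60 lost the call and 5 gained it, all 5 for Apoe. Leaving out the deepest monocyte of library 3 is among the alternatives of the 2 added comparisons only. It was added after seeing the data, as were the other alternatives of those comparisons. The causes were not tested.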
